A study of Mus musculus with 17 samples.

Results

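Hearts of vehicle-treated mice 1 week after transverse aortic constriction were compared with Control hearts. Transverse aortic constriction (TAC) is an operation that narrows the aortic arch, so that the left ventricle must pump against a raised pressure. The comparison used 7 of the 17 heart libraries of the series, 3 labelled Control and 4 labelled TAC 1 week+Vehicle, chosen by their treatment label alone. The mice were C57BL/6 on normal chow under 12 h of light and 12 h of dark, and hearts were taken at about zeitgeber hour 10, that is 10 h after lights on. Libraries were made from total RNA with a TruSeq RNA kit, which keeps no strand information, so reads from overlapping antisense genes cannot be told apart. For Control the labels give neither an operation, nor a vehicle, nor a week, and no sex or age is given for either group. TAC therefore cannot be told apart from surgery itself, dosing or age. The labels do not say that replicates were separate animals, so p-values measure the spread between these libraries, which may be technical. Of the 41126 genes in the deposited tables, 28 were marked as holding too many fragments to count in at least 1 of the 7 libraries and were dropped, which left 41098. The dropped genes include Myh6, the fast adult myosin heavy chain, and the giant sarcomere protein gene Ttn.

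A ventricle under pressure load enlarges its muscle cells, which divide little in the adult. Load-sensitive muscle genes, among them those of natriuretic peptides and of fetal contractile isoforms, are classical markers of that state. The heart also holds fibroblasts, endothelial cells, pericytes and macrophages, of which fibroblasts make most of the collagen matrix and can divide. In RNA from whole tissue, fewer cells of a type and less RNA per cell cannot be told apart, and neither can more cells and more RNA per cell.

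Library totals were 9.678 to 10.14 M fragments (M stands for 1000000) in Control and 8.683 to 12.575 M after TAC. Levels are given as CPM, fragments per 1000000 after scaling for library composition. At these totals 1 CPM rests on about 10 fragments, so low genes carry a large counting error. On the leading principal component, with 72.9% of the variance, Control lay at -24.7, -23.2 and -24.3 and TAC 1, 3 and 4 at 18.6, 22.3 and 28.6. TAC 2 stood apart at 2.63, between the groups. It lay closer to the Control mean than any other TAC library in 76.8% of the genes called higher and in 71.6% of those called lower, and TAC 4 lay farthest in 60.9% and 56.3%. Control 2 also differed from its group in genes of the Y chromosome: Ddx3y was at 211, 72.1 and 213 CPM in Control 1, 2 and 3, and between 170 and 209 CPM after TAC. Uty was at 86.1, 36.3 and 82.0 CPM in Control 1, 2 and 3, and between 77.3 and 87.5 CPM after TAC. Xist, the RNA that coats the inactive X chromosome, was at 7.36, 4.28 and 0.722 CPM in Control and between 1.73 and 2.74 CPM after TAC. The part of this in the results was not tested. Where leaving out TAC 2 or Control 2, or fitting all 17 libraries, ended or gave the call of a gene named below, its adjusted p there closes the paragraph or stands beside the gene.

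In these heart libraries markers of ventricular muscle were high and the atrial light chain was low. The 8 markers of ventricular muscle summed to between 35300 and 35640 CPM in Control and between 29680 and 35860 CPM after TAC. Myl7, the atrial light chain, was between 0.929 and 2.63 CPM in the 7 libraries. Markers of lung summed to at most 0.83 CPM and those of adipocytes to at most 2.03 CPM, and none of either list passed the count filter.

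One week of load was accompanied by change in a large share of the expressed genes. Of 15064 genes tested with edgeR's quasi-likelihood test, 3626 (24.1%) were called at an adjusted p under 0.05, 2067 (13.7%) of them higher after TAC and 1559 (10.3%) lower. At a change of at least 2-fold, 459 genes (3.05%) were higher and 106 (0.704%) lower. The libraries of both groups did not overlap for 2591 genes (17.2%) that stood higher after TAC and for 2353 (15.6%) that stood lower. The rises reached farther than the falls. The median log2 fold change was 0.56 among the called rises and -0.36 among the called falls, and 158 rises but 6 falls reached 2 or more on the log2 scale. Summed over the called genes, mean levels rose by 52563 CPM among the rises and fell by 59318 CPM among the falls. The 10 genes with the largest gain made up 23.4% of the rise, and the 10 with the largest loss 26.2% of the fall. The count of called genes was 2497 without Control 2 and 4887 without TAC 2, and 2362 in a fit of all 17 libraries.

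**Figure D1:**
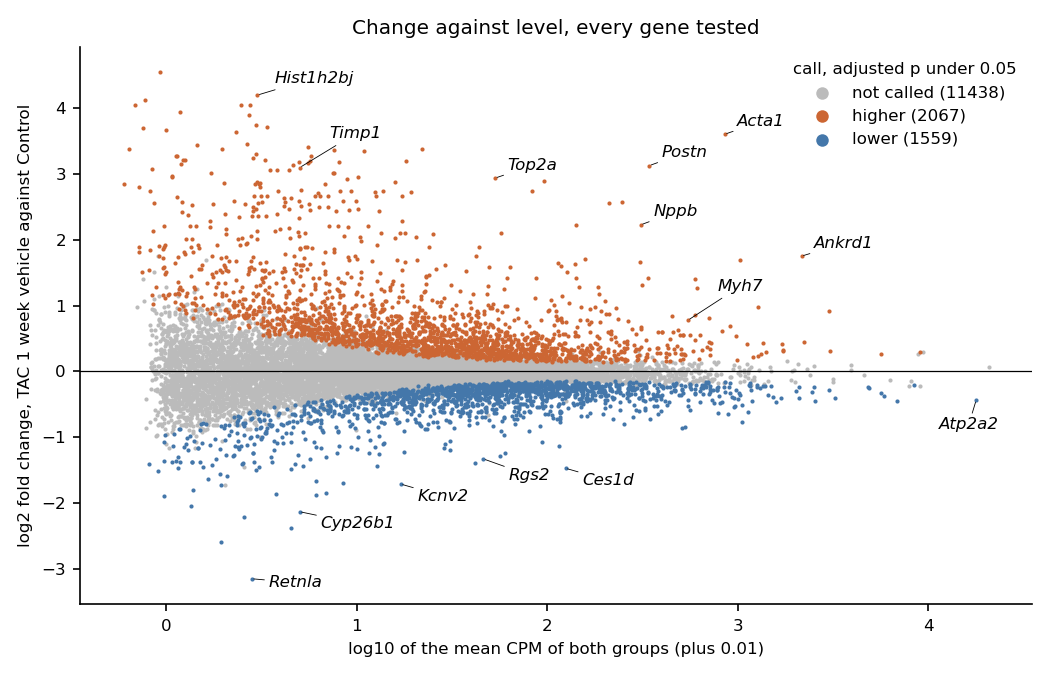
Each point is 1 of the 15064 genes tested, with the log10 of its mean CPM over both groups on the x axis and its log2 fold change, TAC 1 week vehicle against Control, on the y axis. Orange and blue mark the 2067 genes called higher and the 1559 called lower, and the rises reach farther from 0 than the falls, up to Hist1h2bj at 4.20 among the labelled genes.

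The load markers of heart muscle stood far above Control. Of 12 tested genes in the list of natriuretic peptides and fetal muscle genes, 8 rose and 0 fell, against 13.7% higher among all genes tested, with a median log2 fold change of 0.85 against -0.005 for all genes. Nppb (ENSMUSG00000029019.8, mm10 chromosome 4, 147985788 to 147987205), which encodes the hormone BNP released by stretched ventricle, was at 116, 109 and 103 CPM in Control. After TAC it was at 454, 396, 554 and 639 CPM, a log2 fold change of 2.23 ± 0.14 (SE; adjusted p = 2.09e-05). All 4 TAC libraries stood above all 3 Control libraries, and this was the smallest p among the called rises. Acta1 (ENSMUSG00000031972.4, chromosome 8, 123891769 to 123894751), the skeletal muscle actin, was at 90.5, 150.8 and 148.8 CPM in Control and at 1834, 749, 1921 and 1821 CPM after TAC. Its log2 fold change was 3.60 ± 0.31 (SE; adjusted p = 1.46e-04), and TAC 2 was far below the other TAC libraries while still above Control. Nppa, which encodes the natriuretic peptide ANP, was at 71.5, 44.9 and 95.9 CPM in Control and at 571, 183, 378 and 552 CPM after TAC, a log2 fold change of 2.58 ± 0.35 (adjusted p = 4.38e-04). Myh7, the slow myosin heavy chain, was at 456, 355 and 400 CPM in Control and at 612, 507, 812 and 839 CPM after TAC. Its log2 fold change of 0.78 ± 0.15 passed here (adjusted p = 0.00312) and did not pass in the fit of all 17 libraries (adjusted p = 0.205). Actc1, the cardiac actin, rose by 0.29 ± 0.06 from a high level, 8160 to 9997 CPM in the mean. Rcan1, a feedback inhibitor of calcineurin, rose by 1.00 ± 0.15. The smooth muscle actin Acta2 (0.19) and Tagln (0.21), also listed as fetal muscle genes, did not pass. Tagln passed without Control 2 (adjusted p = 0.0473).

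The promoters of both leading genes are shown because their start sites lie next to letters long studied in cardiac muscle promoters. Each is the 250 bases before the RefSeq start nearest to the annotated 5′ end of the gene, from build GRCm38.p6, written 5′ to 3′ on the gene's own strand. Capitals mark the letters CATTCC on either strand, the core of the M-CAT element bound by TEAD factors, TATAAA on the gene's strand, and the CArG box, the site type of serum response factor. The Acta1 window is chr8:123894776-123895025 on the minus strand and the Nppb window chr4:147985650-147985899 on the plus strand.
Acta1: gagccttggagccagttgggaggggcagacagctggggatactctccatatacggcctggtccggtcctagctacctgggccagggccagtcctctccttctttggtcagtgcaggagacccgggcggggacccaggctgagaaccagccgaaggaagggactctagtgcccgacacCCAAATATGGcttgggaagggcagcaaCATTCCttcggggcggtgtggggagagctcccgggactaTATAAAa
Nppb: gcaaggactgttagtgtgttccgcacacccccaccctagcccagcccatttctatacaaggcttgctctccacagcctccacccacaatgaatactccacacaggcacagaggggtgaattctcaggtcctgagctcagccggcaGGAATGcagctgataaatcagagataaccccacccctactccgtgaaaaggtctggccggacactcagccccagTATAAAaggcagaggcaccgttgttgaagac
The Acta1 window held 1 match of each of these 3 patterns, and the Nppb window held 1 CATTCC match, on the opposite strand, and 1 TATAAA. Of the 10 promoters found for the 12 tested members of the list, 5 held CATTCC, 3 a CArG box and 3 TATAAA. Among the 10919 promoters found for all genes tested, 10.7% held CATTCC on either strand, 1.15% a CArG box and 4.07% TATAAA. A match is a description of the letters and not of a bound site.

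Genes of the Z-disc and its attachments, which anchor the sarcomere and sense its tension, mostly stood higher. Of 31 tested, 17 rose and 3 fell, with a median log2 fold change of 0.23. The count of falls was near the 10.3% of all genes tested. Ankrd1 (ENSMUSG00000024803.8, chromosome 19, 36111961 to 36120099), a titin-binding stress protein, was at 997, 945 and 1029 CPM in Control. It was at 3144, 1947, 3986 and 4266 CPM after TAC, a log2 fold change of 1.75 ± 0.20 (adjusted p = 3.1e-04) and the largest gain in mean CPM of any called gene. Xirp2, an actin-binding protein of the intercalated disc, rose by 0.92 ± 0.12 and the related Xirp1 by 0.25. Ankrd23, a relative of Ankrd1, rose by 0.84 ± 0.09, and the filamin gene Flnc by 0.61. Tcap, the telethonin gene that caps titin at the Z-disc, moved the other way. It was at 1158, 1014 and 1105 CPM in Control and at 627, 795, 705 and 658 CPM after TAC, a log2 fold change of -0.65 ± 0.08 (adjusted p = 3.17e-04), with no overlap. The other falls were the desmosome gene Dsp (-0.28) and the N-cadherin gene Cdh2 (-0.20). Connexin 43 (Gja1) was at 0.04 and did not pass.

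The cytoskeleton that muscle shares with other cells moved almost wholly one way. Of 25 tubulin, non-muscle actin and related genes, 22 rose and 1 fell, with a median of 0.70. Vim, the intermediate filament of fibroblasts and endothelium, was at 183, 183 and 188 CPM in Control and at 482, 354, 494 and 649 CPM after TAC (log2 fold change 1.42 ± 0.15, adjusted p = 2.51e-04). Stmn1, which destabilises microtubules, rose by 1.70, the tropomyosin Tpm4 by 0.91 ± 0.10, the intermediate filament gene Nes by 0.79 ± 0.09 and beta-actin (Actb) by 0.69. The fall was Tuba4a, an alpha-tubulin, from 611, 569 and 537 CPM to 532, 387, 438 and 474 CPM (-0.32 ± 0.09, adjusted p = 0.0216). All 22 rises were smallest in TAC 2, and 20 were largest in TAC 4. The fall of Tuba4a did not pass without Control 2 (adjusted p = 0.0647) or in the fit of all 17 libraries (0.107).

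**Figure D2:**
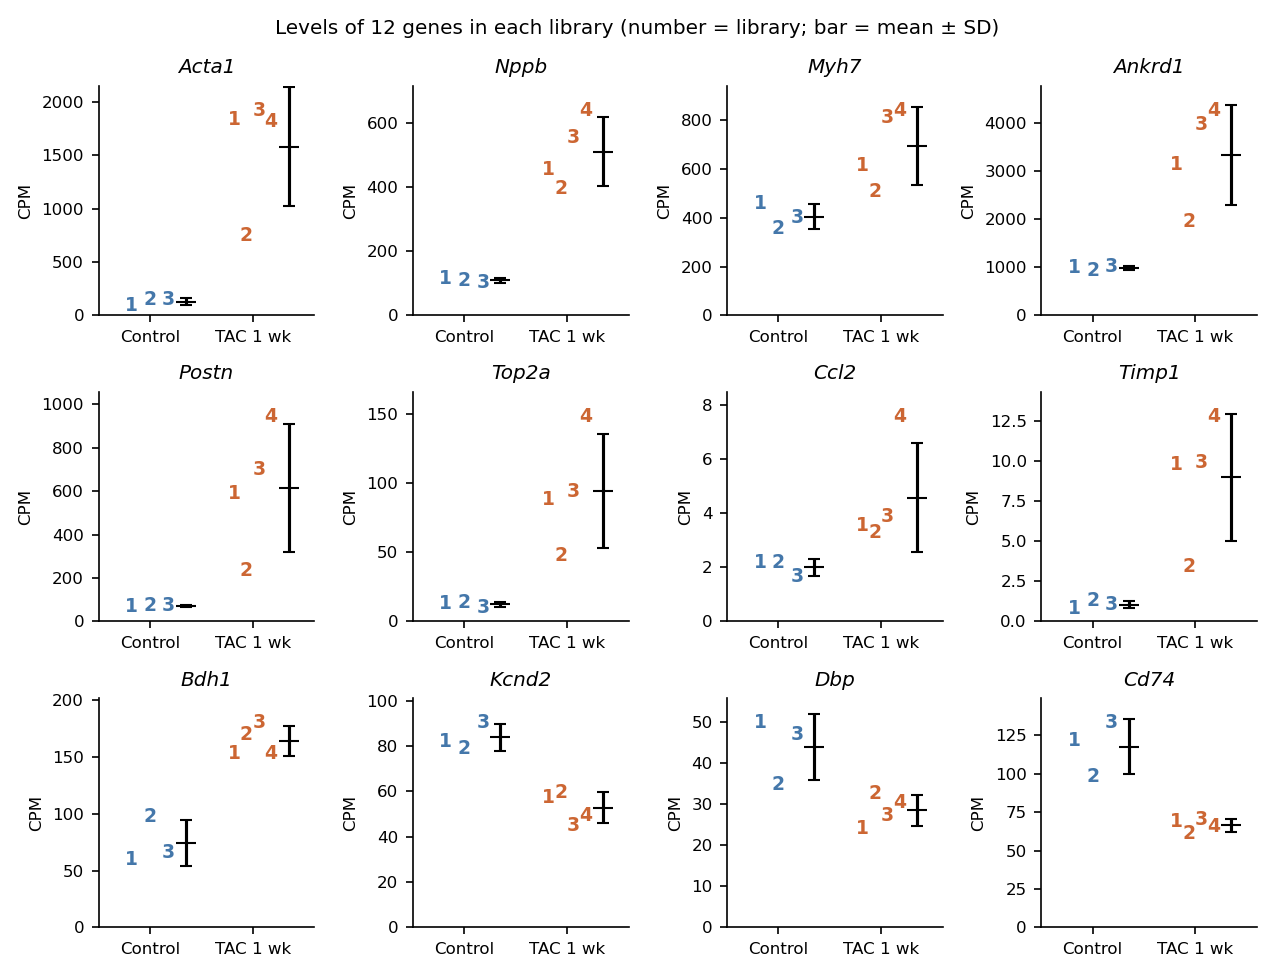
Each panel gives the CPM of 1 gene in every library on a linear axis from 0, with Control in blue and TAC 1 week vehicle in orange. The digit is the library number and the black bar the mean ± SD (n = 3 and n = 4). In Acta1, Ankrd1, Postn, Top2a and Timp1 the TAC 2 library sits between Control and the other 3 TAC libraries, and in Bdh1 and Cd74 it does not.

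Matrix genes rose across their families. Of 22 collagen chains tested, 21 rose and 1 fell, with a median of 1.09. Col1a1, a chain of the main fibrillar collagen, was at 56.2, 59.2 and 60.5 CPM in Control and at 182, 116, 197 and 218 CPM after TAC (1.61 ± 0.17, adjusted p = 2.51e-04). Col3a1 gained most CPM, from a mean of 489 to 1573 CPM. The largest log2 fold changes of the list were those of Col12a1 (2.73) and Col8a1 (2.23), and basement membrane chains also rose, Col4a1 by 0.98 and Col18a1 by 1.11. Col6a6, a long chain of the microfibrillar type VI collagen, was lower (29.0 to 20.9 CPM in the mean, -0.48 ± 0.12, adjusted p = 0.0129), while Col6a1, Col6a2 and Col6a3 rose by 0.88 to 1.07. Among 25 enzymes and chaperones of collagen, 16 rose and 1 fell (P3h4, a partner of prolyl hydroxylase, at -0.37). The rises included Lox, the crosslinking oxidase, at 2.11 ± 0.35, the procollagen protease gene Adamts2 at 1.26 ± 0.11 and the chaperone gene Serpinh1 at 0.68 ± 0.09. Neither fall, of Col6a6 (adjusted p = 0.173) or P3h4 (0.0751), passed in the fit of all 17 libraries.

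Genes of proteins that decorate and organise the matrix rose too. Of 37 matricellular, elastic fibre and proteoglycan genes, 29 rose and 3 fell, with a median of 1.14. The count of falls was near the 10.3% of all genes tested. Postn (ENSMUSG00000027750.11, chromosome 3, 54361109 to 54391037), periostin, a product of activated fibroblasts, was at 67.0, 73.5 and 71.4 CPM in Control and at 589, 234, 697 and 943 CPM after TAC (3.13 ± 0.35, adjusted p = 2.86e-04). The TAC values spread widely among themselves, yet the lowest, TAC 2, stood far above every Control value. Tnc, tenascin C, rose by 3.39 ± 0.47, the thrombospondin Thbs4 by 3.20 and Cilp, a glycoprotein known from cartilage, by 2.74 ± 0.24. The falls were Fbln1, a fibulin of elastic fibres, at -0.55 ± 0.09, the proteoglycan Ogn at -0.32 and Ltbp1, which holds latent TGF-beta, at -0.29. Its relatives Ltbp2, Ltbp3 and Ltbp4 rose, by 2.11, 0.35 and 0.43. Decorin (Dcn, 0.10) and thrombospondin 2 (Thbs2, -0.23) did not pass. Ltbp3 did not pass without Control 2 (adjusted p = 0.0861) or in the fit of all 17 libraries (0.136), whereas Thbs2 passed without Control 2 (0.046) and Dcn without TAC 2 (0.0421).

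Of 30 matrix proteases and inhibitors, 20 rose and 0 fell, and 11 rose in the fit of all 17 libraries. Timp1, an inhibitor of matrix metalloproteinases, was at 0.83, 1.30 and 1.03 CPM in Control and at 9.78, 3.42, 9.92 and 12.8 CPM after TAC (3.10 ± 0.43, adjusted p = 5.03e-04). The inhibitors did not move together, since Timp2 rose by 0.22 and Timp3 (-0.06) and Timp4 (-0.30) did not pass. Mmp2, which cleaves basement membrane, rose by 0.58 ± 0.07, Mmp14 by 0.94 and Adam12 by 2.50 ± 0.36, and Mmp9 (-0.10) did not pass. Of 29 integrin, laminin and nidogen genes, 18 rose and 3 fell, where 13.7% and 10.3% of all genes tested did. The count of falls was near that share. The laminin falls were Lamb3 (-0.85 ± 0.12), Lama5 (-0.36) and Lamb2 (-0.21), beside rises of Lamc1 (0.56), Lamb1 (0.46) and Lama4 (0.41). Of 21 tested genes of TGF-beta and BMP signalling, 8 rose and 2 fell, the falls again near the share of all genes. The rises included the ligand genes Tgfb2 (0.41) and Tgfb3 (0.64 ± 0.09), and the follistatin-like genes Fstl1 (1.67 ± 0.22) and Fstl3 (2.01). The receptor gene Tgfbr3 (-0.38 ± 0.07) and the ligand gene Bmp6 (-0.40) were lower, and Tgfb1 (0.29) did not pass. In the fit of all 17 libraries 4 of these genes rose and 1 fell, and 5 rose without Control 2. The fit of all 17 libraries also ended the calls of Timp2 (adjusted p = 0.15), Lama5 (0.0751), Lamb2 (0.0801), Tgfb2 (0.25) and Bmp6 (0.0567). Leaving out Control 2 ended those of Tgfb2 (0.129) and Bmp6 (0.0539).

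Genes used by dividing cells rose strongly, with the highest median log2 fold change of the lists after the histones. Of 29 mitosis genes, 28 rose and 1 fell, with a median of 2.46. Kif23 (chromosome 9, 61915905 to 61946774), a kinesin of the dividing cell's midzone, was at 3.32, 3.09 and 2.99 CPM in Control and at 15.9, 9.59, 18.1 and 24.7 CPM after TAC (2.47 ± 0.29, adjusted p = 3.17e-04). The checkpoint kinase gene Bub1b rose by 2.45 ± 0.26 and the spindle kinesin gene Kif11 by 2.66 ± 0.31. The mitotic kinase gene Cdk1 rose by 2.93 and its partner Ccnb1 by 3.06. In each of the 28 rises TAC 2 lay closest to Control and TAC 4 farthest from it. The exception was Cenpf (ENSMUSG00000026605.9, chromosome 1, 189640606 to 189688086), a large kinetochore protein gene. It was at 118, 92.9 and 117 CPM in Control and at 72.2, 70.1, 66.1 and 103 CPM after TAC (-0.48 ± 0.13, adjusted p = 0.0221), where TAC 4 overlapped Control.

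Genes of DNA synthesis rose with them. Of 29 tested, 24 rose and 0 fell, with a median of 0.80. Top2a (ENSMUSG00000020914.12, chromosome 11, 98992943 to 99024189), the topoisomerase of dividing cells, was at 13.2, 13.7 and 10.3 CPM in Control and at 87.9, 47.4, 93.6 and 148 CPM after TAC (2.94 ± 0.33, adjusted p = 2.74e-04). The helicase subunit gene Mcm6 rose by 1.46 ± 0.17, the loading factor gene Mcm10 by 2.34 ± 0.29 and Rrm2, which makes deoxynucleotides, by 1.82. The clamp gene Pcna rose by 0.53, and the GINS gene Gins4 (0.02) and the clamp loader gene Rfc5 (0.12) did not pass.

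Promoters of Top2a and Kif11 are shown as the leading members of the DNA synthesis and mitosis lists whose 250 bases hold both patterns searched for the cell cycle, and were chosen with their values known. Capitals mark CCAAT, the site type of NF-Y, and TTTGAA, the usual form of the cell cycle homology region, each on either strand. The Top2a window is chr11:99024190-99024439 on the minus strand and the Kif11 window chr19:37376132-37376381 on the plus strand, both from RefSeq on GRCm38.p6.
Top2a: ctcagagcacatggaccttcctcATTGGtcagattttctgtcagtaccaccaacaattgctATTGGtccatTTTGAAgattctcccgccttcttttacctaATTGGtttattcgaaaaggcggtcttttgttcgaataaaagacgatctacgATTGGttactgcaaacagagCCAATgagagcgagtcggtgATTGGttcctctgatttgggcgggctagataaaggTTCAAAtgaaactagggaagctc
Kif11: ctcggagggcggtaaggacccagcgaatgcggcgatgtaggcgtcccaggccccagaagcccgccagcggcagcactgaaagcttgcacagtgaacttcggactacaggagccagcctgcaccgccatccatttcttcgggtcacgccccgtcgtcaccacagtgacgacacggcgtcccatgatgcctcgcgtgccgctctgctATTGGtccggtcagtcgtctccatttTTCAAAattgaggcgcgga
The Top2a window held 6 matches of CCAAT and 2 of TTTGAA, and the Kif11 window 1 of each. CCAAT stood in 19 of the 24 promoters found for mitosis genes (79.2%) and in 15 of the 23 found for DNA synthesis genes (65.2%), against 36.1% of the 10919 promoters of all genes tested. TTTGAA stood in 6 and 5 of them, against 10.6% of all. TTCCCGC, a form of the E2F site, stood in 26.1% of the DNA synthesis promoters and 0 of the 24 mitosis promoters, against 6.85% of all. For comparison, CCAAT stood in 7 of 17 collagen promoters (41.2%).

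Histone genes whose RNA is made during DNA synthesis had some of the largest log2 fold changes in the data. Of 63 in the list, 43 passed the count filter, and 40 of these rose and 1 fell, with a median of 2.54. Most are low, so a gene could pass the filter through the TAC libraries alone. Hist1h1b, a linker histone, was at 1.97, 1.79 and 2.17 CPM in Control and at 17.5, 10.4, 20.7 and 30.7 CPM after TAC (3.35 ± 0.37, adjusted p = 2.51e-04). Hist1h2ag was at a log2 fold change of 4.54, and Hist1h2bj at 4.20 ± 0.48 on a Control level between 0.104 and 0.516 CPM. Near-identical histone genes can share reads, so single values are uncertain. Hist2h2be went the other way, from 12.5 to 9.16 CPM in the mean (-0.46 ± 0.12, adjusted p = 0.0176). That fall did not pass in the fit of all 17 libraries (adjusted p = 0.0711).

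Regulators of cell cycle entry rose more often than they fell. Of 31 tested, 14 rose and 3 fell, where 13.7% and 10.3% of all genes tested did. The count of falls was near that share. Cyclin D1 (Ccnd1) was at 86.5, 90.0 and 80.5 CPM in Control and at 186, 138, 181 and 197 CPM after TAC (1.04 ± 0.10, adjusted p = 2.19e-04). E2f1, E2f2, E2f7 and E2f8 rose by 1.58 to 1.87, and E2f4 (-0.05) and E2f5 (0.02) did not pass. Among CDK inhibitors Cdkn1a at 1.09 and Cdkn2c at 0.94 were higher and Cdkn1c at -0.48 lower. Among pocket protein genes Rbl1 was higher (1.38 ± 0.16) and Rbl2 lower (-0.30 ± 0.06). Of 24 genes of ribosome biogenesis, 2 rose (Fbl and Rrp12) and 1 fell (Polr1a), with a median of 0.06, a share below that of all genes. Of 29 genes of the secretory pathway 6 rose and 2 fell, and 3 rose in the fit of all 17 libraries. The falls, no more than the share of all genes, were the chaperones Hspa5 (-0.43 ± 0.06) and Canx (-0.32 ± 0.05). Cdkn1c did not pass without Control 2 (adjusted p = 0.0997) or in the fit of all 17 libraries (0.139). Fbl did not pass without Control 2 (0.0918) or without TAC 2 (0.0597).

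**Figure D3:**
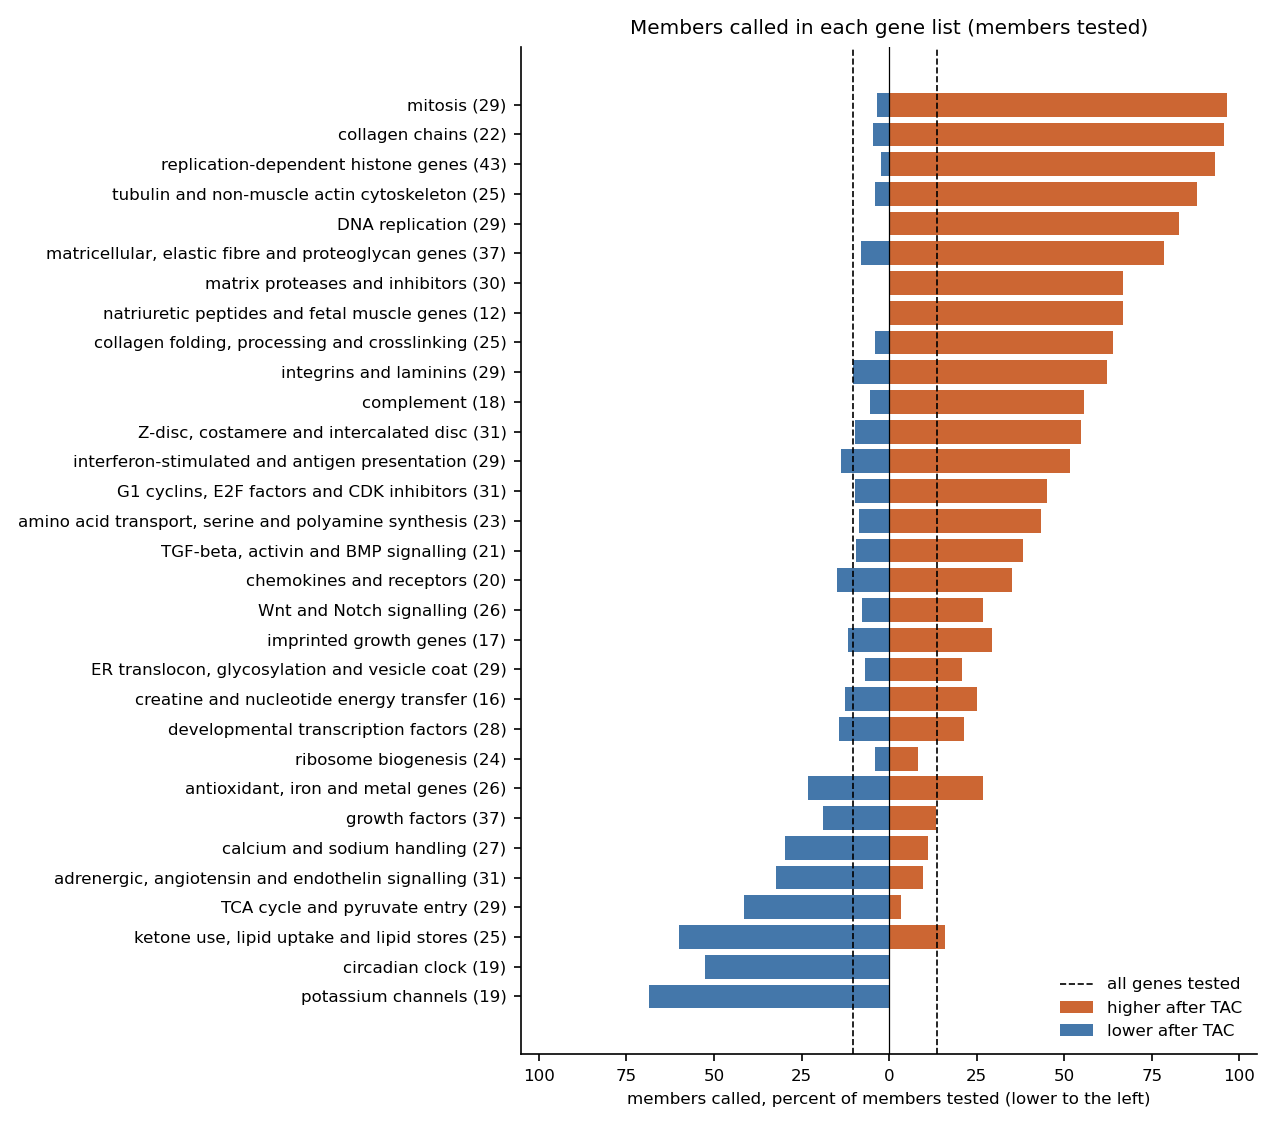
For each of the 31 pathway lists, with its number of members tested in brackets, the bars give the percent of tested members called higher (orange, to the right) and lower (blue, to the left) after TAC. The dashed lines mark 13.7% and 10.3% of all genes tested, and mitosis, collagen chains and histones lie farthest to the right and potassium channels farthest to the left.

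Genes of fuel use stood lower, by small amounts. Of 29 genes of the TCA cycle and pyruvate entry, 12 fell and 1 rose, with a median of -0.15, where 10.3% of all genes tested fell. The count was 20 falls without TAC 2 and 3 in the fit of all 17 libraries. Idh3g, a subunit of isocitrate dehydrogenase, was at 431, 421 and 429 CPM in Control and at 317, 357, 295 and 290 CPM after TAC (-0.44 ± 0.07, adjusted p = 8.94e-04). Sdha, of succinate dehydrogenase, fell by 0.35. Pdk4, a kinase that closes pyruvate dehydrogenase and is induced by fasting and fat, was at 474, 714 and 784 CPM in Control and at 326, 355, 410 and 354 CPM after TAC. Its log2 fold change of -0.86 ± 0.13 passed here (adjusted p = 8.92e-04) but not in the fit of all 17 libraries (adjusted p = 0.0575). Pdk2 was lower too (-0.44), and the little expressed Pdk3 was higher (0.73 ± 0.21, adjusted p = 0.0222). Sdha (adjusted p = 0.07), Pdk2 (0.0632) and Pdk3 (0.0582) likewise did not pass in the fit of all 17 libraries, nor Pdk3 without Control 2 (0.0998).

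Of 25 genes of ketone use, lipid uptake and lipid stores, 15 fell and 4 rose, with a median of -0.26, and 8 fell in the fit of all 17 libraries. Bdh1 (ENSMUSG00000046598.9, chromosome 16, 31422280 to 31458901), the mitochondrial enzyme that oxidises beta-hydroxybutyrate, was at 59.6, 97.9 and 65.9 CPM in Control and at 153, 170.0, 181 and 153 CPM after TAC. That is a log2 fold change of 1.14 ± 0.14 (adjusted p = 3.17e-04), with TAC 2 among the higher TAC libraries. Oxct1 and Acat1, which follow Bdh1 in ketone use, fell by 0.22 and 0.26. Uptake genes fell: the lipase Lpl by 0.37, the carrier Cd36 by 0.32 and the transporter Slc27a1 by 0.72. So did genes of lipid droplets, Plin4 by 0.65 and the lipases Lipe by 0.65 and Pnpla2 by 0.46. The other rises were the binding proteins Fabp5 (0.84) and Fabp4 (0.36), which vascular cells and macrophages also express, and the endothelial lipase anchor Gpihbp1 (0.20). Without Control 2 and in the fit of all 17 libraries, the adjusted p was 0.163 and 0.0792 for Oxct1, 0.0515 and 0.091 for Acat1, and 0.0543 and 0.112 for Gpihbp1. Pnpla2 did not pass in the fit of all 17 libraries (0.0618).

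Amino acid and stress genes gave smaller sets. Of 23 genes of amino acid transport, serine and polyamine synthesis, 10 rose and 2 fell, the falls near the 10.3% of all genes. The rises included the transporter Slc38a2 (0.60 ± 0.08) and the mitochondrial folate enzyme Mthfd2 (1.19). Amd1 (-0.63 ± 0.09), which makes the polyamine precursor, fell. Creatine and nucleotide energy genes gave 4 rises, among them the brain type kinase Ckb (0.47 ± 0.10), and 2 falls in 16, the falls near the 10.3% of all genes, and Ckm (0.07) did not pass. Antioxidant and iron genes were split, 7 up and 6 down of 26, with 2 up in the fit of all 17 libraries and with 10 down without TAC 2 and 3 without Control 2: Mt2, a metallothionein, rose by 1.28 and the transferrin receptor Tfrc by 0.98, while Gstm1 (-0.70 ± 0.09) and the iron exporter Slc40a1 (-0.51 ± 0.08) fell. Mt2 (adjusted p = 0.0591) and Tfrc (0.0671) did not pass in the fit of all 17 libraries.

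Ion channels of the muscle membrane stood lower. Of 19 potassium channel genes, 13 fell and 0 rose, with a median of -0.40. Kcnv2 (ENSMUSG00000047298.3, chromosome 19, 27322588 to 27337179), a silent subunit that modifies Kv2 channels, was at 23.0, 27.1 and 27.6 CPM in Control and at 6.79, 14.4, 6.90 and 4.46 CPM after TAC (-1.71 ± 0.26, adjusted p = 7.06e-04). Kcnd2, of the transient outward current, was at 82.1, 79.0 and 90.4 CPM in Control and at 57.5, 59.5, 44.9 and 49.6 CPM after TAC (-0.67 ± 0.09, adjusted p = 3.97e-04). Neither gene overlapped between the groups. Kcnj2, of the inward rectifier current, fell by 0.70, and Kcnj3 and Kcnj5, which together form the acetylcholine-gated channel, by 0.76 and 0.53. Kcnq1 (0.20), Kcna5 (0.18) and Kcna4 (0.06) did not pass. Without TAC 2, 14 of these genes fell and 2 rose. In that setting Kcnq1 (adjusted p = 0.0479) and Kcna5 (0.0458) passed.

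Genes of calcium handling stood lower more often than higher. Of 27 genes 8 fell and 3 rose, where 10.3% and 13.7% of all genes tested did, so the rises were near the share of all genes. The median was -0.12, and 4 fell in the fit of all 17 libraries. Atp2a2 (ENSMUSG00000029467.10, chromosome 5, 122453513 to 122502225), the calcium pump SERCA2a, was at 20630, 20400 and 20610 CPM in Control and at 14980, 17750, 15160 and 12840 CPM after TAC (-0.44 ± 0.09, adjusted p = 0.0042), the largest loss in mean CPM of any called gene. Its inhibitor Pln fell by a like amount (-0.46 ± 0.08), and the sodium-calcium exchanger Slc8a1 rose (0.24 ± 0.05, adjusted p = 0.00404). The release channel Ryr2 was at -0.14 and did not pass. Of 31 genes of adrenergic, angiotensin and endothelin signalling, 10 fell and 3 rose, the rises no more than the share of all genes. The falls included the receptor genes Adra1a (-0.76), Adra1b (-0.77) and Adrb1 (-0.45). Rgs2, which shuts off Gq signalling, was at 64.6, 58.7 and 74.5 CPM in Control and at 27.8, 33.4, 27.1 and 18.0 CPM after TAC (-1.33 ± 0.15, adjusted p = 2.86e-04). Ace, the angiotensin converting enzyme of endothelium, was at 72.3, 70.9 and 68.0 CPM in Control and at 135, 112, 155 and 137 CPM after TAC (0.94 ± 0.09, adjusted p = 2.11e-04). The endothelin gene Edn1 (-0.30) did not pass. Adrb1 did not pass in the fit of all 17 libraries (adjusted p = 0.121), and Ryr2 passed without TAC 2 at -0.18 (0.0134).

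Secreted growth factors went both ways, 5 up and 7 down of 37 tested, which is near the share of all genes for the rises. Igf1 rose by 0.97 ± 0.10 and its binding protein Igfbp7 by 1.18 ± 0.14, while Igfbp3 fell by 0.73. Vegfa rose by 0.34. Angpt1, the Tie2 ligand made by pericytes and muscle, was at 73.9, 87.7 and 71.9 CPM in Control and at 38.5, 53.0, 37.1 and 31.5 CPM after TAC (-0.97 ± 0.14, adjusted p = 4.93e-04). Ctf1, cardiotrophin 1, fell by 0.99. Ctf1 did not pass without Control 2 (adjusted p = 0.069).

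Markers of macrophages rose with complement genes. Of 8 general macrophage markers 7 rose and 0 fell, with a median of 0.72, and the markers summed to 255 to 277 CPM in Control and 374 to 456 CPM after TAC. Adgre1, the F4/80 antigen, rose by 0.89 ± 0.11 and the lysosomal Cd68 by 1.17. Of 18 complement genes 10 rose and 1 fell, and 6 rose without Control 2 or in the fit of all 17 libraries. C1qa, a subunit of C1q made by macrophages, was at 37.3, 40.2 and 44.0 CPM in Control and at 75.6, 62.9, 79.8 and 82.8 CPM after TAC (0.90 ± 0.09, adjusted p = 2.51e-04). Markers of resident macrophages rose in 5 of 8 cases, Mrc1 by 0.50 ± 0.06, and 2 did not pass. The 1 fall among them was that of Retnla (ENSMUSG00000061100.3, chromosome 16, 48842551 to 48844461), a secreted protein of alternatively activated macrophages. It was at 4.98, 3.88 and 6.29 CPM in Control and at 0, 1.03, 0.647 and 0.548 CPM after TAC (-3.15 ± 0.41, adjusted p = 3.6e-04), the largest fall of a named gene. Recruited monocyte markers were low. Of 5 tested, 2 rose and 0 fell. Ccr2 rose by 1.08 ± 0.28, with overlap in TAC 2, and Trem2 by 1.64 ± 0.23. The other 3 did not pass, 2 of them with a negative log2 fold change, and Plac8, Chil3 and Arg1 were below the count filter. Markers of T cells, B cells and neutrophils were mostly below the filter, with 1, 2 and 2 members tested of 9, 7 and 7, and Cd4 (1.01 ± 0.32, adjusted p = 0.0358) was the 1 call among them. Without Control 2 neither Ccr2 (adjusted p = 0.0621) nor Cd4 (0.136) passed.

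Of 20 tested chemokines and their receptors, 7 rose and 3 fell, where 13.7% and 10.3% of all genes tested did. The count of falls was near that share. The rises numbered 12 without TAC 2, 3 without Control 2 and 4 in the fit of all 17 libraries. Those that draw monocytes were higher, Ccl2 by 1.23 ± 0.32, Ccl7 by 1.01, Ccl8 by 2.20 ± 0.37 and Ccl12 by 1.89. The eotaxin genes Ccl11 (-1.63) and Ccl24 (-1.42), which draw eosinophils, and Cxcl14 (-1.23 ± 0.17) were lower. Interferon-stimulated genes and the class II antigen presentation genes beside them in the list went apart. In all 15 of 29 rose and 4 fell, the count of falls again near the share of all genes. The rises numbered 8 without Control 2 and 9 in the fit of all 17 libraries. The list summed to 1187 to 1622 CPM in Control and 1254 to 1625 CPM after TAC, so its sums overlapped. The rises included genes known to be induced by type I interferon, such as Ifi27l2a (1.43 ± 0.20, adjusted p = 4.95e-04), Isg15 (1.30) and Ifit3 (0.75). The 4 falls were the class II genes H2-Aa (-0.83 ± 0.10), H2-Ab1 (-0.86) and H2-Eb1 (-0.67) and their chaperone Cd74. Cd74 was at 122, 98.1 and 133 CPM in Control and at 68.7, 60.8, 70.2 and 65.8 CPM after TAC (-0.83 ± 0.09, adjusted p = 2.51e-04), with TAC 2 the lowest of all libraries. The class I genes H2-K1 (-0.04) and H2-D1 (0.11) did not pass. Dendritic cell markers, which share class II expression, gave 0 calls in 5 tested genes with edgeR and 0 with DESeq2. In the edgeR test 1 gene (Clec9a, at 0.305) had an unadjusted p under 0.05. The markers summed to 54.8 to 63.1 CPM in Control and 59.5 to 64.8 CPM after TAC. Most of these sums was Zbtb46, at 46.75 CPM in Control and 46.87 CPM after TAC in the mean, so they say little about the other markers. Without Control 2 the calls of Ccl7 (adjusted p = 0.0915), Ccl12 (0.0799), Ccl24 (0.129) and Ifit3 (0.159) ended, and those of Ccl2 (0.0592), Ccl7 (0.0727) and Ifit3 (0.0924) ended in the fit of all 17 libraries.

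Markers of the other cell types were counted in the same way. Of all genes tested 13.7% rose and 10.3% fell, so 1 call in a list of 5 to 8 genes is near those shares. Among 10 markers of activated fibroblasts 7 rose and 0 fell, with a median of 1.49, and 4 rose in the fit of all 17 libraries. Their sum went from between 205 and 247 CPM to between 484 and 1384 CPM. Much of that gain was Postn, from 70.63 to 616.1 CPM in the mean, so the sum says little about the other markers. Cthrc1, counted among the rises, was at 0.0996 to 0.1037 CPM in Control and at 1.38, 0, 1.618 and 2.581 CPM after TAC. It overlapped between the groups and passed the count filter through TAC libraries alone. The activated set did not move as a whole, since Acta2, Fap (0.19) and Fmod (-0.32) did not pass. General fibroblast markers gave 5 rises, or 3 without Control 2, and 3 falls in 10, with sums of 2244 to 2327 CPM in Control and 2144 to 2256 CPM after TAC. Pdgfra, the receptor common to cardiac fibroblasts, was at 100.3, 100.1 and 100.8 CPM in Control and at 101.2, 94.72, 103.7 and 102.9 CPM after TAC. Pi16 rose by 0.82 ± 0.10 and Gsn, a gelsolin, fell by 0.62. Gsn made up most of the fibroblast sum in Control, at 1344 to 1398 CPM, and was at 728 to 1147 CPM after TAC. The like sums therefore do not show how the other fibroblast markers moved. Of 10 endothelial markers 4 rose, or 2 in the fit of all 17 libraries, Pecam1 by 0.40 ± 0.07, and 0 fell. Of 8 markers of sprouting endothelium 2 rose, Cd34 (0.79 ± 0.11) and Apln (0.57 ± 0.09). The other 6 did not pass, 2 of them with a negative log2 fold change. Smooth muscle gave 1 fall (Synpo2, -0.28 ± 0.07) in 8, near the share of all genes, and pericytes 1 rise (Cspg4, 0.42 ± 0.08) and 3 falls in 8 (1 without Control 2 or in the fit of all 17 libraries), of which Abcc9 and Kcnj8 are also muscle channel genes. Of the 8 ventricular markers 2 rose and 2 fell, Tnni3 by 0.41 and Tnnt2 by 0.34, and 4 fell without TAC 2. Lymphatic markers gave 1 rise (Pdpn) and 1 fall (Prox1) in 6, or 4 rises without TAC 2. Mesothelium gave 2 falls in 7 (1 without Control 2 and 0 in the fit of all 17 libraries), and Schwann cells 1 fall in 5 (0 in both alternatives). Atrial muscle gave 1 rise and 2 falls in 6. Among the atrial falls was the potassium channel gene Kcnj3, at a mean of 146.3 CPM in Control. The atrial light chain Myl7, at 1.391 CPM there, did not pass (0.15), so the calls of this list say little about atrial muscle. Mast cells gave 1 rise (Kit, 0.36) in 6, and tendon 2 rises (Comp, 1.09, and Scx, 0.68) in 3. Without Control 2 the calls of Synpo2 (adjusted p = 0.0538), Kcnj8 (0.199), Kit (0.0691) and Scx (0.0949) ended. Those of Kcnj8 (0.0626), Tnni3 (0.053), Prox1 (0.0868), Kit (0.144) and Comp (0.264), and the atrial rise, ended in the fit of all 17 libraries.

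**Figure D4:**
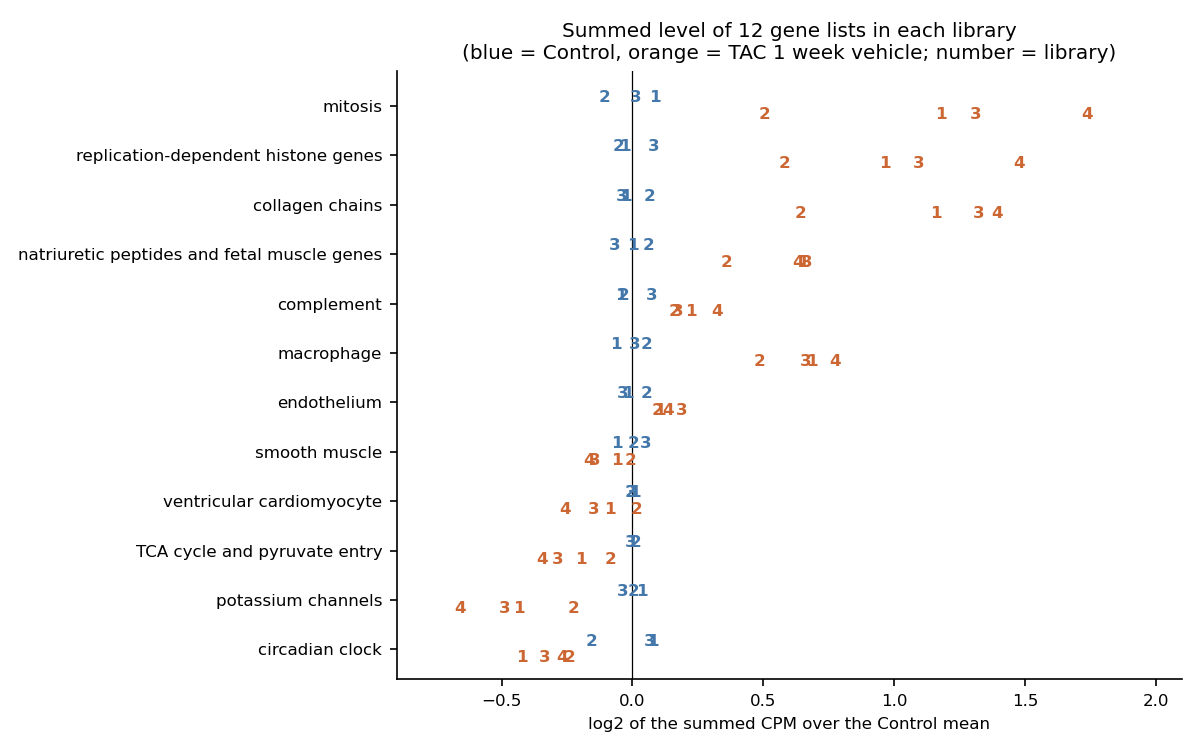
The summed CPM of 12 gene lists in each library is drawn as a log2 ratio to the mean of the 3 Control libraries, with Control in blue, TAC 1 week vehicle in orange and the digit giving the library number. In the first 4 lists all TAC libraries lie right of Control with TAC 2 nearest to it, while for ventricular cardiomyocyte and smooth muscle markers the groups overlap.

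Clock genes stood lower at the common harvest time. Of 19 tested, 10 fell and 0 rose, with a median of -0.36, and 3 fell in the fit of all 17 libraries. The D-box factor Hlf fell by 0.88 ± 0.13, Tef by 0.56 ± 0.09 and Cry2, a repressor of the clock, by 0.60 ± 0.09. Dbp, the third D-box factor, was at 49.98, 34.86 and 47.15 CPM in Control and at 24.0, 32.8, 27.3 and 30.4 CPM after TAC (-0.62 ± 0.13, adjusted p = 0.00407, and 0.209 in the fit of all 17 libraries). Nr1d1, the gene of REV-ERB alpha, fell by 0.51 ± 0.09. Arntl, the gene of BMAL1, was at 8.502, 16.23 and 8.564 CPM in Control and at 22.4, 16.3, 17.3 and 13.5 CPM after TAC (0.63 ± 0.22, adjusted p = 0.0594). Control 2 stood apart in this list too, with the highest Arntl and the lowest Dbp of its group. Without it Arntl passed at 1.01 (adjusted p = 0.00661; 0.036 without TAC 2 instead) and Per2, at -0.42 with all libraries (adjusted p = 0.141), passed at -0.61 (adjusted p = 0.0425). A difference in the exact time of harvest was not tested. Tef did not pass in the fit of all 17 libraries (adjusted p = 0.0629).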

How the data were processed

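RNA-seq of mouse heart was taken from tables deposited by the authors, 1 per library, whose headers have the columns that Cuffdiff writes for read groups, per the file headers. The deposited value used here was the raw fragments per gene, an estimated count that the authors did not normalize: 2289 to 2678 values per library were not whole, and all were rounded. The submitters' processing notes name mm10 as build. The aligner is not given in the sources used here. Genes with status HIDATA, written as 0, were dropped; 14 with status FAIL were kept. GENCODE M21 gave symbols and coordinates for 40252 of 41126 gene IDs, and the others held 0.776% to 1.365% of fragments.

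The 7 libraries were fitted with edgeR 4.0.16 (R 4.3.3), with TMM scaling, filterByExpr, the quasi-likelihood test with 5 residual degrees of freedom, and two-sided Benjamini-Hochberg adjusted p under 0.05 over all 15064 genes tested. The common dispersion was 0.00532. Tested on simulated counts of 15064 genes for this comparison, the fit recovered 86 of 100 genes changed 2-fold and 50 of 100 changed 1.5-fold, and called 10 unchanged genes. The simulation changed few genes, each by the same expected amount in every TAC library. In the data 24.1% of genes were called and TAC 2 lay between the groups, so these rates need not hold there. Alternatives were median-of-ratios scaling, DESeq2 1.42.0, no count filter, all 17 libraries, a replicate block and leaving out each library.

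The 31 pathway and 24 cell type lists were written with earlier results of these data known, as was the choice of comparison. Lists are described by counts and medians without a set test. Genes were named by rule: up to 10 rises and 10 falls of largest log2 fold change with at least 5 CPM in a group and no overlap between groups, the 5 with the largest CPM change and the 5 with the smallest p in each direction, the 3 list members of smallest p with the leading member of the rarer direction (2 for cell types), and 11 fixed heart and clock genes. Other members, and the genes Ddx3y, Uty and Xist, were named after their values were seen. Promoter sequences are RefSeq's on GRCm38.p6, matched by symbol for 10919 genes tested. Results for a few genes are not reported here.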

Additional observations from a re-analysis of the deposited data

Results flagged for a closer look

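In a group of 4 libraries a value was set apart when its gap to the nearest other library took up most of the group's range, by Dixon's 95% criterion. Of 232 named genes and list sums examined this way in the TAC libraries, 8 were set apart. Chance gives about 1 in 20, so the count was no more than chance alone would give. TAC 2 was the library set apart in 5 of them. It was lowest for Acta1 (749.3 CPM, with the others between 1821 and 1921 CPM), for Pdpn, a membrane protein of lymphatic endothelium (7.304 CPM against 11.34 to 12.08 CPM), and for the summed natriuretic and fetal muscle genes (11730 CPM against 14150 to 14490 CPM). It was highest for the sodium channel subunit Scn4b (52.27 CPM against 39.68 to 41.41 CPM) and for the summed genes of ketone use and lipid stores (16420 CPM against 13970 to 14380 CPM). In all 5 the value lay on the Control side of the other TAC libraries. The summed natriuretic and fetal muscle genes include Acta1, so those flags are not separate. TAC 4 was set apart in the other 3, highest for Cenpf (102.7 CPM against 66.1 to 72.23 CPM) and for Ccl25, a chemokine near the count filter (1.877 CPM against 1.255 to 1.294 CPM), and lowest for Actn2, the alpha-actinin of the Z-disc (1341 CPM against 1474 to 1488 CPM).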

How the results depend on the processing

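The count of 3626 called genes (2067 higher, 1559 lower) was 3636 with median-of-ratios scaling, 2822 with DESeq2, 3743 without a count filter and 2362 (1419 higher, 943 lower) with all 17 libraries in the fit. Leaving out 1 library gave 2177 to 4887 calls, 1365 to 2664 higher and 812 to 2223 lower. The lowest counts were those without Control 1 (2177) and Control 3 (2381) and the highest that without TAC 2, and the cause was not tested. Every main call kept its sign in each alternative that tested the gene, and 2289 of the 2362 calls of the 17-library fit were main calls of the same direction. The replicate numbers did not pair the libraries: residuals of same-numbered libraries correlated at -0.004, -0.018 and -0.03, and a fit with the replicate block called 2562 genes (1512 higher, 1050 lower). Of 163 called genes among the 178 named, 132 kept their call in all 12 alternatives. Reversals were among uncalled genes: over leave-outs Ms4a1 ranged from -0.32 to 0.03, Hbb-bs from -0.37 to 0.09, Cxcr2 from -0.09 to 0.12, Ptcra from -0.25 to 0.05 (0.02 with the block) and Ccl25 from -0.20 to 0.14. Depth limits genes near 1 CPM.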

Other observations

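Genes kept in use from development gave scattered changes. Of all genes tested 13.7% rose and 10.3% fell, and the falls of the 3 lists below were near that share. In the fit of all 17 libraries 1419 of 15931 genes rose. The rises of Wnt and Notch genes and of developmental factors in that fit were near this share. Of 17 imprinted growth genes 5 rose (3 in the fit of all 17 libraries) and 2 fell: Mest rose by 1.69 ± 0.21, from 9.44, 11.1 and 8.98 CPM in Control to 28.6, 20.9, 32.9 and 43.2 CPM, and Meg3, a maternally expressed noncoding RNA, by 0.55 ± 0.10, while Zim1 fell by 0.82 and Cdkn1c by 0.48. Igf2 (0.04) and H19 (-0.18) did not pass. Among 26 tested Wnt and Notch genes 7 rose and 2 fell, and 4 rose without Control 2 and 2 in the fit of all 17 libraries. The secreted Wnt antagonists Frzb (1.25 ± 0.23), Sfrp1 (0.81 ± 0.18) and Sfrp2 (1.10) rose and Wif1, another antagonist, fell by 1.04. Of 28 developmental transcription factors 6 rose (3 in the fit of all 17 libraries), with Meox1 at 1.55 ± 0.19 and Sox9 at 1.05, and 4 fell (1 in that fit and 2 without Control 2), with Tbx5, a factor of conduction and atrial identity, at -0.79 ± 0.16. Gata4 (-0.08) and Nkx2-5 (0.11) did not pass. Without Control 2 the calls of Zim1 (-0.53, adjusted p = 0.221), Cdkn1c (0.0997), Sfrp2 (0.0514) and Wif1 (0.056) ended. In the fit of all 17 libraries those of Meg3 (0.0661), Cdkn1c (0.139), Sfrp1 (0.0615), Sfrp2 (0.166) and Sox9 (0.121) ended.

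Small nucleolar RNA genes leaned one way. Of 86 tested, 15 (17.4%) fell and 0 rose, and 72 had a negative log2 fold change, with a median of -0.33. Of 403 long intergenic noncoding RNA genes 42 (10.4%) fell, near the 10.7% of 13214 protein-coding genes, and 13 (3.23%) rose, against 15.1% of protein-coding genes. Short RNAs and repeated copies are counted with little certainty in such libraries.

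The comparison of these 7 libraries held 50 genes that the authors' tool left uncounted in other groups. Of these 27 were tested, and 2 rose and 5 fell, where 13.7% and 10.3% of all genes did. Acadsb, an enzyme of branched-chain acyl-CoA breakdown, fell by 0.44, from a mean of 232 to 172 CPM, and Htra1, a secreted protease, fell by 0.29. Malat1 was at 20310 CPM in Control and 21290 CPM after TAC in the mean (0.07) and did not pass.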
